A study of Mus musculus with 54 samples.

Results

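The 9 genes described here, Brca1, Brca2, Bard1, Rad18, Palb2, Fancd2, Blm, Exo1 and Rad54l, encode proteins of homologous recombination and of the repair of damaged replication forks. They were chosen by gene symbol, with earlier results of these data known. Each was read from 1 Affymetrix probe set, the one with the highest mean over all 54 arrays among the probe sets annotated to that gene alone. All 9 had such a probe set, out of 14104 genes in the series, and no filter on low values was applied. Expression had been measured in murine CGR8 embryonic stem cells (ESCs, male cells of strain background 129) that carried a short hairpin RNA against Mageb16 (KD), a scrambled hairpin RNA (SCR) or no construct (WT). Each line was sampled undifferentiated (day 0) and as embryoid bodies (EBs), which are aggregates of differentiating cells made in hanging drops, on days 2, 4, 12, 15 and 22, and 3 arrays were made for each of the 18 combinations of line and day. The KD and SCR lines were polyclonal populations selected with puromycin, and each is a single line, so an effect of the hairpin and a difference between lines cannot be told apart. Whether the 3 arrays came from separate cultures is not stated in the labels, so p values measure only the spread between these arrays.

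Homologous recombination repairs a break through both DNA strands by copying the intact sister chromatid, and it therefore works mainly in cells that are replicating or have replicated their DNA. BRCA1 with its partner BARD1 promotes the trimming of the broken ends, EXO1 is a nuclease that does this trimming, PALB2 joins BRCA1 to BRCA2, BRCA2 prepares the exposed strand for pairing with the sister chromatid, RAD54L is a motor protein that helps this strand to invade it, and BLM, a helicase of the RecQ family, takes the joined molecules apart. FANCD2 acts in the Fanconi anaemia pathway at cross-links between strands, and RAD18 attaches ubiquitin to PCNA at stalled replication forks. ESCs divide fast and are known for heavy use of homologous recombination.

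Promoter sequences of 7 of the 9 genes were found in RefSeq (build GRCm38.p6, from 250 bases before to 50 bases after the transcription start). They were searched on both strands for 3 strings like the binding sites of the E2F factors of the cell cycle. These were TTCCCGC (found in 4.66% of all promoters), then TTCGCGC (in 1.59%), then TTGGCGC (in 2.54%). Other strings searched were TTTGAA, known as the CHR element, the string CCAAT of the CCAAT box, and as the GC box the string GGGCGG. Of these 7 promoters 3 held an E2F-like match, against 8.21% of 27025 promoters, and these 3 are shown since they are the ones with such a match. Capitals mark the E2F-like match.
Brca1 (chr11:101551906-101552205, minus strand): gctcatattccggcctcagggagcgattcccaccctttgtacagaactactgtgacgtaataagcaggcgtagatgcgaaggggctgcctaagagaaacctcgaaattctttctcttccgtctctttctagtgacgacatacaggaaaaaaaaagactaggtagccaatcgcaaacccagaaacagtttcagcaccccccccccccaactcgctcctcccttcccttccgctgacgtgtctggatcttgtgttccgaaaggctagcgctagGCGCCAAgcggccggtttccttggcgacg
Brca2 (chr5:150522371-150522670, plus strand): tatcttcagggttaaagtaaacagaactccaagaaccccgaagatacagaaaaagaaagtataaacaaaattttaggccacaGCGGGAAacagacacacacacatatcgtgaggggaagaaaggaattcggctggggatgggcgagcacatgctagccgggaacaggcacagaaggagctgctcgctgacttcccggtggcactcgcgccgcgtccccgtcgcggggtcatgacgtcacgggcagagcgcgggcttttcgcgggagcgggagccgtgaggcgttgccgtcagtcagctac
Bard1 (chr1:71102923-71103222, minus strand): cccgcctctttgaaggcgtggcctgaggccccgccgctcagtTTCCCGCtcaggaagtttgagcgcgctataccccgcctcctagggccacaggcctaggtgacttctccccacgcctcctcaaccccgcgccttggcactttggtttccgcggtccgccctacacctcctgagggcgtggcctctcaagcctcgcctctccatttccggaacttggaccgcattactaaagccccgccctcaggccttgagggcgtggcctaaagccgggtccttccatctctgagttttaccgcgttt
In Brca1 the match was TTGGCGC on the reverse strand, at bases 21 to 27 after the start. In Brca2 it was TTCCCGC on the reverse strand, 168 to 162 bases before the start, and in Bard1 it was TTCCCGC on the forward strand, 208 to 202 bases before the start. Bard1 alone of the 7 held TTTGAA (18.1% of all promoters), the promoters of Brca1, Palb2, Blm and Rad54l held CCAAT (37.9%), and those of Bard1, Palb2, Blm and Rad54l held GGGCGG (35.9%). None of the 3 E2F-like strings was found in the windows of Palb2, Blm, Rad54l and Rad18, and none of the motifs in that of Rad18. Rad18 and Rad54l had 2 starts listed each, and only the window of the first listed start was searched. A match describes the letters and was not tested as a site.

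The targeted gene was read first. Mageb16 lay at 7.11, 7.0 and 7.06 log2 in undifferentiated KD cells, against 10.09, 10.09 and 10.03 in undifferentiated SCR cells, and it was below SCR on each of the 6 days. The log2 difference between KD and SCR was -3.01 on day 0, -5.75 on day 4 and -2.43 on day 22. In WT, Mageb16 itself was at 7.16, 6.98 and 6.98 on day 4, below its SCR level of that day. The arrays had medians of 5.94 to 6.26 log2 and lower quartiles of 4.23 to 4.51, and no array was identical to another. In 17 of the 18 groups replicate 3 was the array that lay most often between the other 2, for up to 59.3% of probe sets. If it is not independent of them, the SDs and p values given here are too small, and this was not tested.

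All 9 genes were lower in KD EBs than in SCR and WT EBs on days 12, 15 and 22, and none of them differed by 2-fold before that. Over the mean of the 3 late days the log2 change from SCR ran from -1.12 for Brca1 to -0.78 for Brca2, with a median of -1.04 against -0.02 over all 14104 genes. From WT it ran from -1.37 for Fancd2 to -0.86 for Brca2, with a median of -1.24 against 0.03 over all genes. By adjusted p below 0.05 and at least 2-fold (limma, Benjamini-Hochberg over all probe sets), 6 of 9 genes were lower in KD than in SCR, where 4.87% of all genes were, and 8 of 9 were lower in KD than in WT, where 6.22% were. By adjusted p alone all 9 were lower in KD in both comparisons, where 39.0% and 38.0% of all genes were. The study had itself named Brca1 and Rad18 as lower in late KD EBs on these same arrays. It had also listed DNA metabolic process and DNA recombination among the terms of a gene cluster lower in late KD EBs. These counts are therefore not independent of it. These values come from whole EBs, in which fewer cells of a type and less RNA per cell cannot be told apart.

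**Figure D1:**
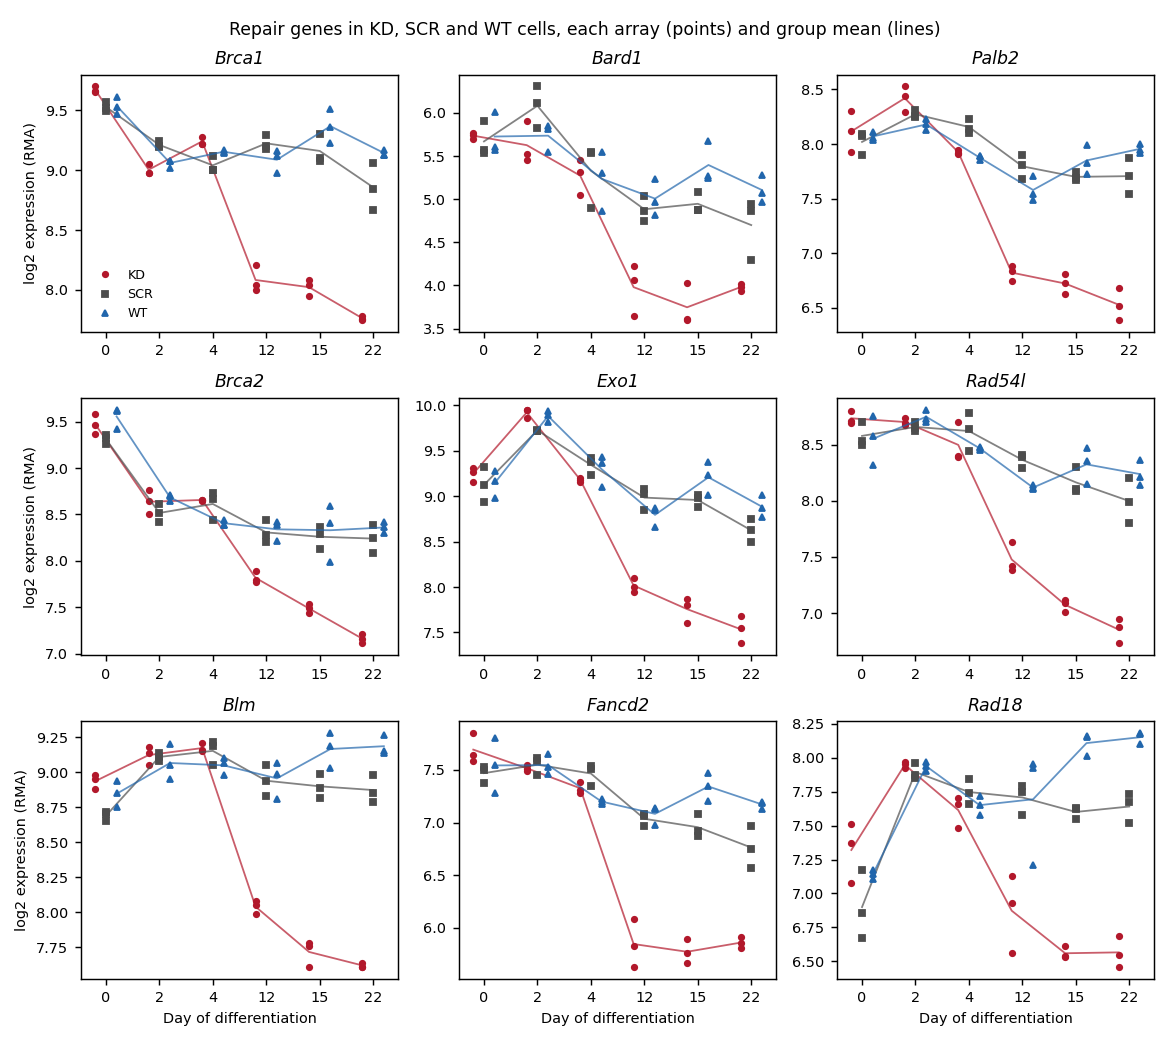
Log2 expression (y axis) of the 9 repair genes by day of differentiation (x axis, days not to scale), with a point for each of the 54 arrays and lines through the means of the KD, SCR and WT groups of 3. The KD arrays of days 12, 15 and 22 lie below the SCR and WT arrays of the same days for each gene, while on days 0 to 4 the 3 lines lie close together.

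Brca1 differed by at most 0.21 log2 between KD and SCR until day 4. Its values on day 4 were 9.28, 9.22 and 9.22 log2 in KD, against 9.0, 9.0 and 9.12 in SCR and 9.17, 9.14 and 9.15 in WT. On day 12 they were 8.21, 8.0 and 8.04 in KD, against 9.29, 9.18 and 9.20 in SCR and 9.16, 8.98 and 9.12 in WT, and on day 22 they were 7.75, 7.78 and 7.76 in KD, against 9.06, 8.67 and 8.84 in SCR and 9.17, 9.13 and 9.13 in WT. All KD arrays of the late days thus lay below every SCR and WT array, with the highest at 8.21 and the lowest of the other 45 arrays at 8.67. Over the late days Brca1 was 2.18-fold lower in KD than in SCR (log2 change -1.12, SE 0.04, adjusted p = 2.27e-25, limma) and 2.37-fold lower than in WT (log2 change -1.24, SE 0.04).

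Bard1, the partner that gives BRCA1 a stable ubiquitin ligase, gave a dim signal. In late EBs it lay at 3.6, 3.98 and 4.23 log2 (lowest, median and highest of 9 arrays) in KD, against 4.30, 4.88 and 5.08 in SCR and 4.82, 5.23 and 5.68 in WT. The KD arrays did not overlap with those of SCR or WT. All 9 late KD arrays were under the lower quartile of their array, so the size of the change is not exact there. The log2 change was -0.94 from SCR (SE 0.11, adjusted p = 2.86e-10, limma), short of 2-fold, and -1.27 from WT (SE 0.11), which is 2.41-fold. Without replicate 2 of the 22-day SCR EBs the change from SCR was -1.01 and Bard1 passed the 2-fold minimum.

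Palb2, whose protein bridges BRCA1 and BRCA2, was at 6.39, 6.73 and 6.88 log2 in late KD EBs, against 7.54, 7.71 and 7.90 in SCR and 7.49, 7.83 and 8.0 in WT. The gap of 0.61 between its highest late KD array and the lowest of the other 45 arrays was the widest of the 9 genes. Palb2 was 2.06-fold lower than in SCR (log2 change -1.04, SE 0.05, adjusted p = 5.18e-22) and 2.15-fold lower than in WT.

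Brca2, which acts after the ends are trimmed, had the smallest difference between the lines and a course of its own before it. It was at 9.37, 9.58 and 9.47 log2 on day 0 and 8.76, 8.51 and 8.64 on day 2 in KD, at 9.36, 9.26 and 9.32 and then 8.61, 8.42 and 8.52 in SCR, and at 9.42, 9.63 and 9.62 and then 8.64, 8.71 and 8.70 in WT. In each line the day 2 arrays were thus all below the day 0 arrays. Late KD EBs were at 7.11, 7.49 and 7.89, against 8.08, 8.28 and 8.44 in SCR and 7.99, 8.39 and 8.59 in WT. The KD arrays lay apart from those of SCR and WT, by only 0.10, and the SCR and WT arrays overlapped. The late log2 change was -0.78 from SCR (SE 0.06, adjusted p = 7.65e-16, limma), or 1.72-fold, and -0.86 from WT (SE 0.06), or 1.81-fold, both short of 2-fold. By day the change from SCR was -0.49 on day 12, -0.77 on day 15 and -1.08 on day 22, and only the value of day 22 passed the 2-fold minimum.

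Exo1, the nuclease of end trimming that also serves mismatch repair, was highest on day 2 in all lines, with 9.95, 9.86 and 9.95 log2 in KD, 9.72, 9.72 and 9.73 in SCR and 9.94, 9.81 and 9.89 in WT. Late arrays were at 7.38, 7.80 and 8.10 in KD, against 8.49, 8.88 and 9.08 in SCR and 8.66, 8.87 and 9.38 in WT. No late KD array reached the SCR or WT range. Exo1 was 2.12-fold lower in KD than in SCR (log2 change -1.08, SE 0.06, adjusted p = 3.58e-20) and 2.28-fold lower than in WT.

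Rad54l, the motor protein of strand invasion, was at 6.73, 7.09 and 7.63 log2 in late KD EBs, against 7.80, 8.20 and 8.41 in SCR and 8.10, 8.15 and 8.47 in WT. It continued downward within the late KD days, with group means of 7.48 ± 0.13 on day 12, 7.07 ± 0.06 on day 15 and 6.85 ± 0.11 on day 22 (SD, n = 3 each). Rad54l was 2.06-fold lower in KD than in SCR (log2 change -1.04, SE 0.06, adjusted p = 1.31e-19) and 2.13-fold lower than in WT.

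Blm, the RecQ helicase, was at 7.61, 7.76 and 8.08 log2 in late KD EBs, against 8.79, 8.89 and 9.05 in SCR and 8.81, 9.14 and 9.28 in WT. Its late KD arrays lay 0.57 below the lowest of all others, which was an undifferentiated SCR array. Blm was 2.16-fold lower in KD than in SCR (log2 change -1.11, SE 0.04, adjusted p = 6.32e-25) and 2.48-fold lower than in WT.

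Fancd2, the ubiquitinated scaffold of cross-link repair, was at 5.63, 5.83 and 6.08 log2 in late KD EBs, against 6.57, 6.97 and 7.08 in SCR and 6.98, 7.19 and 7.47 in WT. The KD arrays were again all below the others. Fancd2 was 2.13-fold lower in KD than in SCR (log2 change -1.09, SE 0.06, adjusted p = 5.17e-20). It was 2.59-fold lower than in WT, the widest late difference from WT among the 9 genes on the probe sets used.

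Rad18, which acts on PCNA and not in the core of homologous recombination, had the most different course on the probe set used. On day 0 it was at 7.08, 7.37 and 7.51 log2 in KD, 6.67, 7.17 and 6.86 in SCR and 7.11, 7.14 and 7.17 in WT. On day 2 it was at 7.97, 7.92 and 7.95 in KD, 7.96, 7.85 and 7.87 in SCR and 7.90, 7.97 and 7.94 in WT, so that every day 2 array was above every day 0 array. In late EBs the KD arrays were at 6.46, 6.56 and 7.13, against 7.52, 7.63 and 7.79 in SCR and 7.21, 8.10 and 8.18 in WT. The late KD range lay below the SCR and WT ranges of the late days, yet it overlapped the undifferentiated arrays, since the lowest of these (SCR, 6.67) was 0.46 below the highest late KD array. Rad18 was 1.98-fold lower in late KD than in late SCR (log2 change -0.98, SE 0.07, adjusted p = 2.52e-15, limma) and 2.49-fold lower than in late WT (log2 change -1.32, SE 0.07). The change from SCR passed the 2-fold minimum, at -1.02 to -1.0, without any 1 of 4 arrays (replicate 2 of KD on day 12 or day 22, replicate 1 of SCR on day 12, replicate 2 of SCR on day 22).

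For 8 of the 9 genes, Rad18 being the exception, all 9 late KD arrays were below all 45 other arrays. This held for 6.15% of all genes. In each of the 9 genes the 3 lowest of the 18 group means were the KD groups of days 12, 15 and 22. The share of all genes with this order is not given here. For Rad18 the KD mean of day 12 was only 0.03 log2 below the next group mean, with a pooled SD of 0.16. Over all 18 groups, late KD included, most neighbours in the order were close. Of the 17 steps between neighbouring group means, 10 (Exo1) to 15 (Bard1) were smaller than the pooled SD of the gene. Small steps must arise when this many means are put in order, and that SD is the spread of single arrays. Neighbours were not tested against each other.

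Day by day, the number of genes lower in KD than in SCR by adjusted p and 2-fold was 0 on day 0 (0.503% of all genes), 0 on day 2 (2.40%), 0 on day 4 (6.15%), 2 on day 12 (5.46%), 7 on day 15 (6.18%) and 7 on day 22 (4.61%). Against WT it was 0 on day 0 (1.18%), 0 on day 2 (0.900%), 0 on day 4 (0.305%), 3 on day 12 (5.35%), 8 on day 15 (8.74%) and 9 on day 22 (7.16%). None was 2-fold higher on any day, and by adjusted p alone all 9 were lower on each of days 12, 15 and 22 in both comparisons. The shares of all genes lower by that rule on these 3 days were 28.1%, 31.3% and 34.0% against SCR, and 27.1%, 32.6% and 34.5% against WT. On day 12 the genes past 2-fold from SCR were Brca1 (-1.14) and Fancd2 (-1.19), and from WT they were Brca1 (-1.0), Bard1 (-1.03) and Fancd2 (-1.24). These day 12 counts turn on single arrays. The count against SCR was 4 without replicate 2 of KD or without replicate 1 of SCR, and the count against WT was 1 without replicate 3 of KD or without replicate 1 of WT. Left out singly, other arrays each moved 1 gene across the 2-fold minimum. From SCR, Exo1 passed on day 12 without replicate 3 of KD (-1.01), Palb2 passed on day 15 without replicate 3 of KD (-1.02), and Brca1 no longer passed on day 22 without replicate 1 of SCR (-0.99). From WT, Brca1 no longer passed on day 12 without replicate 2 of KD or replicate 3 of WT, Rad18 passed on day 12 without replicate 2 of WT (-1.06), and Brca2 passed on day 15 without replicate 2 of WT (-1.01).

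Before day 12 the differences were small. On day 0, when Mageb16 was already 8.07-fold lower in KD, all 9 genes were slightly above SCR, by 0.07 to 0.42 log2, and by adjusted p alone 2 were higher (9.93% of all genes), Rad18 (0.42, adjusted p = 0.0203, limma) and Blm (0.25, adjusted p = 0.0176). On day 2 only Brca1 passed, and it was lower (-0.21, adjusted p = 0.0294), as were 14.5% of all genes. On day 4, when the difference in Mageb16 was widest, Brca1 was higher in KD (0.20, adjusted p = 0.0215) and Palb2 lower (-0.23, adjusted p = 0.0238), and the other 7 did not pass. On that day 26.6% of all genes were higher by that rule and 23.5% lower. On day 22 the difference in Mageb16 was at its smallest of the 6 days, and the median difference of the 9 genes from SCR was -1.09.

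Within each line the late EBs were set against the undifferentiated cells of the same line. In KD, 8 of 9 genes were lower in late EBs by adjusted p and 2-fold (11.4% of all genes), by 2.21-fold for Blm up to 3.96-fold for Brca2. In SCR 1 of 9 was lower (5.20%) and in WT 1 of 9 (3.26%), in both Brca2, by 2.06-fold and 2.32-fold. By adjusted p alone all 9 were lower in KD (37.5% of all genes), and 7 were lower in SCR (32.4%) and 7 in WT (28.7%), while Blm and Rad18 were higher in both, as were 40.7% of all genes in SCR and 37.6% in WT. Rad18, on the probe set used, was 1.68-fold higher in late SCR EBs (log2 change 0.75, SE 0.10). In late WT EBs it was 1.79-fold higher (0.84, SE 0.10), but in late KD EBs 1.57-fold lower (-0.65, SE 0.10). On its other probe sets the late change was below 0 in SCR (-0.28, -0.55 and -0.48) and in WT (-0.23, -0.47 and -0.32). A late rise of Rad18 in these lines thus rests on 1 probe set. Blm was higher by 0.21 in SCR and 0.26 in WT and lower by 1.14 in KD. By day 4 the count was 0 in KD (7.97% of all genes), 0 in SCR (5.01%) and 1 in WT (9.08%), where Brca2 was 2.22-fold lower than on day 0.

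**Figure D2:**
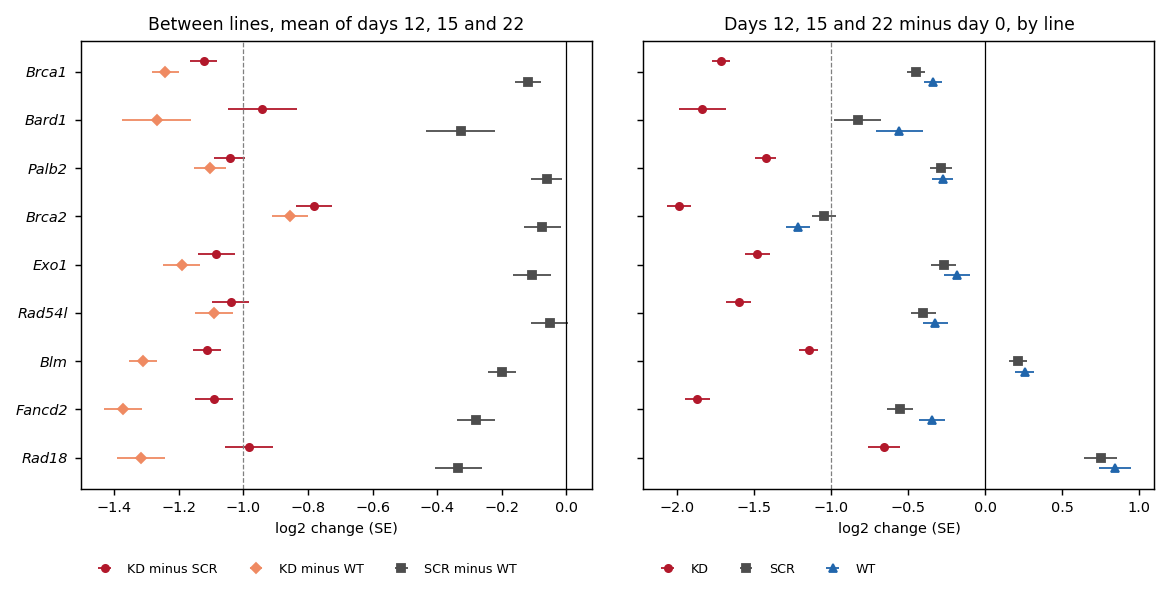
Log2 changes (x axes, with SE) of the 9 genes (y axis). On the left are the differences between lines over days 12, 15 and 22. KD is 0.78 to 1.37 below SCR and WT there, and SCR is within 0.33 of WT. On the right are the late days minus day 0 in each line. There only KD is below 0 for Blm and for the probe set of Rad18 used. Dashed lines mark a 2-fold decrease.

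The difference between these late changes was tested as an interaction of line and day. By adjusted p and 2-fold, the late change was lower in KD than in SCR for 8 of 9 genes (6.90% of all genes) and lower in KD than in WT for 8 of 9 (6.50%), and by adjusted p alone it was so for all 9 in both (30.3% and 28.9%). On the probe sets used, the extra log2 change in KD was largest for Rad18 against SCR, at -1.40 (SE 0.15, adjusted p = 1.32e-10, limma), and for Fancd2 against WT, at -1.52 (SE 0.12, adjusted p = 3.75e-14). The other probe sets of Rad18 gave -1.11, -1.13 and -0.52 against SCR, and those of Fancd2 gave -1.11 and -0.20 against WT. Brca2 was the gene short of 2-fold in both, at -0.94 against SCR and -0.77 against WT (SE 0.11 each). Bard1 was just past it against SCR, at -1.01 (SE 0.21, adjusted p = 0.000109), and the omission of any 1 of 10 arrays left it at -0.99 to -0.94. These interactions share the KD arrays and are not independent of each other or of the comparisons between lines.

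In these genes late SCR and WT EBs lay closer to each other than to late KD EBs. Over the late days none of the 9 genes differed by 2-fold between SCR and WT (2.43% of all genes were lower in SCR), and the log2 change ran from -0.33 for Rad18 to -0.05 for Rad54l with a median of -0.12. By adjusted p alone 5 genes were lower in SCR than in WT (32.1% of all genes), namely Rad18, Bard1, Fancd2, Blm and Brca1. For Rad18 the change was -0.33 (SE 0.07, adjusted p = 0.000192, limma). With the late days pooled, the arrays of SCR and WT overlapped in all 5. On day 22 alone, every SCR array was below every WT array in all 5, and in Palb2 and Exo1. On day 15 alone this held for Rad18, Bard1, Fancd2 and Blm. On day 12 it held for no gene, while Brca1 and Rad54l were higher in SCR without overlap. On each of the 6 days taken alone, 0 of 9 genes differed by 2-fold between SCR and WT. The late days were not alike, however. The median change of SCR from WT was 0.01 on day 12, -0.25 on day 15 and -0.29 on day 22. Over all genes it was -0.02, -0.05 and -0.04 on these days.

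The genes Brca1, Rad18, Fancd2, Exo1 and Rad54l had 13 other probe sets, and all had a late log2 change from SCR below 0, from -1.15 to -0.21, while 3 passed adjusted p and 2-fold. Of these 3, 2 were of Brca1 (-1.07 and -1.15) and 1 of Exo1 (-1.02). The 3 further probe sets of Rad18 were at -0.64, -0.71 and -0.21. Those of Fancd2 were at -0.83 and -0.24, and those of Rad54l at -0.98, -0.83 and -0.50, so none of these passed 2-fold from SCR. From WT the further probe sets of Fancd2 were at -1.04 and -0.20.

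Over the 18 group means the 36 pairs of these genes had Pearson correlations of 0.28 to 0.98, with a median of 0.87. The lowest was that of Brca2 with Rad18, and the highest was that of Palb2 with Rad54l. These points share lines and days, and the same late KD groups are low in all 9 genes, so the correlations are a description. The genes whose group means were most like the mean pattern of the 9 genes were Cenpu (r = 0.99), Cenph (r = 0.99), both of the kinetochore, and Sgo1 (r = 0.98), which protects sister chromatid cohesion. By single gene, Brca1 was most like Hmmr (r = 0.98), Fancd2 most like Orc1 (r = 0.98), a subunit of the origin recognition complex, Blm most like Ttk (r = 0.98), a kinase of the spindle checkpoint, Exo1 most like Haus6 (r = 0.99), and Rad54l most like Cenph (r = 0.98). Brca2 was most like Pcnt (r = 0.98), a scaffold of the centrosome, Bard1 most like Xpo4 (r = 0.99), Palb2 most like Srpk1 (r = 0.98) and Rad18 most like Trmt5 (r = 0.96).

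Some of the other DNA repair genes passed the 2-fold minimum in late KD EBs, where 4.87% of all genes were lower than in SCR by that rule. Of 30 further homologous recombination genes measured, 28 had a log2 change from SCR below 0 (7283 of all 14104 genes did), 3 were lower by adjusted p and 2-fold and none was higher, with a median of -0.45. The 3 were Rad54b, a relative of Rad54l (-1.43), Dna2, a nuclease and helicase of end trimming (-1.10), and Mre11a, the nuclease of the break-sensing complex (-1.01). The study's supplement had listed these 3, and the mismatch repair gene Pms1, under DNA repair in a gene cluster lower in late KD EBs. Of 12 further Fanconi anaemia genes 2 were lower and none higher, with a median of -0.49. These were Ube2t (-1.85), which encodes the enzyme that passes ubiquitin on to FANCD2, and Fanci (-1.44), the partner of Fancd2. Of 12 translesion and post-replication repair genes, the pathway of Rad18, none was lower or higher, with a median of -0.23.

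Of 6 mismatch repair genes 3 were lower (Mlh3 at -1.45, Msh6 at -1.24 and Pms1 at -1.06) with a median of -0.95, and of 12 end-joining genes 3 were lower (Xrcc5 at -1.18, Rif1 at -1.16 and Parp1 at -1.02) with a median of -0.45. Of 22 excision repair genes 1 was lower, the uracil glycosylase Ung (-1.45), with a median of -0.21. Of 14 checkpoint and damage response genes 1 was lower, the kinase gene Chek2 (-1.02), with a median of -0.60. No gene of these 4 lists was higher by 2-fold, while of all genes 4.87% were lower and 10.1% higher. On day 4 the medians of the 7 repair lists lay between -0.29 and -0.03, and 0 to 2 genes of a list were lower (6.15% of all genes).

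**Figure D3:**
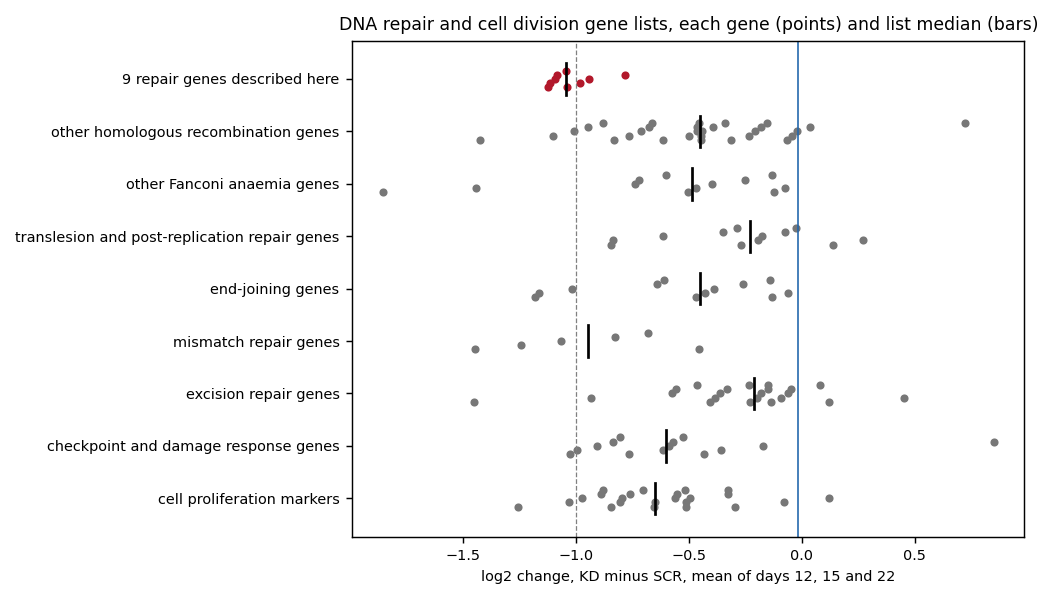
Log2 change of KD from SCR over days 12, 15 and 22 (x axis) for the 9 repair genes (top, red) and for lists of other repair, checkpoint and cell division genes (y axis). Points are genes, black bars are list medians, the dashed line marks a 2-fold decrease and the blue line the median of all genes (-0.02). The 9 genes lie at -1.12 to -0.78, and the medians of the other repair lists at -0.95 to -0.21.

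Markers of other cell states moved with the late difference. Of 23 cell proliferation markers measured, 22 had a late log2 change from SCR below 0, with a median of -0.65. The spindle checkpoint genes Bub1 (-1.26) and Bub1b (-1.03) were the 2 that passed 2-fold, where 4.87% of all genes were lower. The mean log2 level of that list was 9.01 to 9.50 in late KD arrays, against 9.64 to 10.01 in SCR and 9.82 to 10.13 in WT, and the ranges of KD and of the other lines did not overlap. On day 4 its level was 10.11 to 10.15 in KD, against 10.06 to 10.15 in SCR. The list's own change from WT over the late days had a median of -0.67. The part of cell proliferation in the change of the 9 genes was not tested.

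Of 10 pluripotent cell markers 9 were lower in late KD EBs than in SCR (4.87% of all genes), with a median of -2.62. Among them were Tdgf1 (-3.18), Fbxo15 (-2.85), Esrrb (-2.81) and Dppa4 (-2.71). The level of this list was 6.89 to 8.91 in late KD arrays, against 9.82 to 10.59 in SCR and 10.06 to 10.52 in WT. On day 4 it already differed, at 7.30 to 8.0 in KD and 9.88 to 10.02 in SCR. Of its genes 9 were then lower (6.15% of all genes) and 1 was higher (5.67%), which was Klf4 (1.58, named after its value was seen). The mean level of the 9 repair genes on that day was 8.07 to 8.11 in KD and 8.02 to 8.24 in SCR. WT was also low in this list on day 4 (7.99 to 8.48), with a mean level of 7.95 to 8.10 for the 9 repair genes. Against WT on day 4, 3 of the 10 pluripotent markers were lower in KD (0.305% of all genes). Within the late KD days the list was at 6.89, 7.47 and 7.04 on day 12 and at 8.91, 8.91 and 8.91 on day 22. Of the 9 repair genes, 6 had their lowest KD mean on day 22. The part of pluripotent cells in the change of the 9 genes was not tested.

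**Figure D4:**
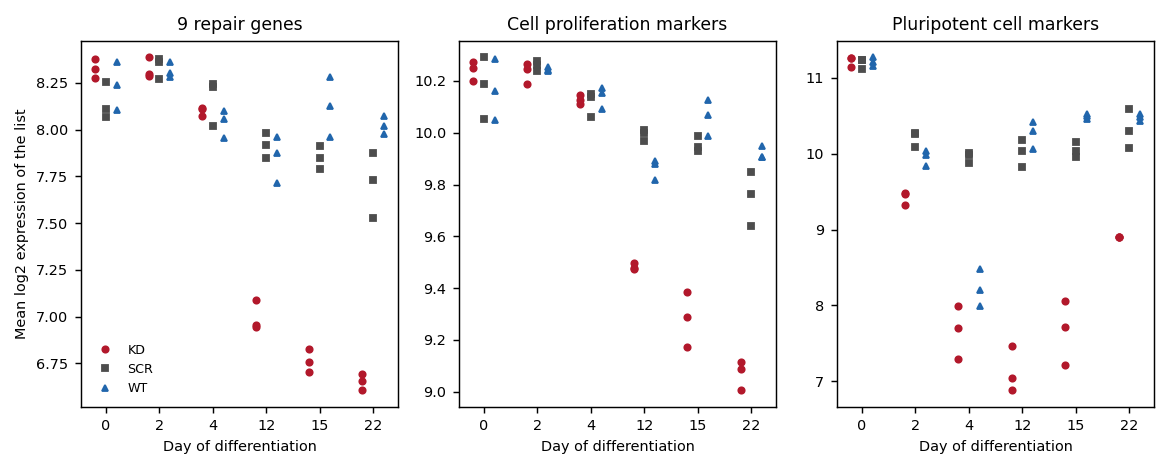
Mean log2 level (y axes) of the 9 repair genes, of 23 cell proliferation markers and of 10 pluripotent cell markers by day (x axis, days not to scale), with a point for each array of KD, SCR and WT. In late KD arrays all 3 lists are below SCR and WT, and on day 4 KD is below SCR in the pluripotent list only.

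Markers of differentiated tissue separated the lines as well. Over the late days 6 of 9 mesoderm and heart markers were higher in KD than in SCR (10.1% of all genes were), including Tnnt2 (3.91) and Myh6 (3.78), and 6 of 8 endoderm and liver markers were higher, including Alb (7.76) and Apoa1 (6.02). Of 11 germ cell and meiosis markers 7 were lower, including Sycp3 (-4.29), Mael (-3.08) and Ddx4 (-2.89). Of 6 neural markers 4 were lower, including Sox1 (-2.30), where 4.87% of all genes were lower. Against WT, the late KD EBs had 6 of 9 mesoderm and heart markers higher (median 1.39, against 0.03 over all genes). They had 3 of 8 endoderm and liver markers higher (median 0.74, against 3.32 from SCR). Of the germ cell and meiosis markers 11 of 11 were lower, as were 6.22% of all genes. The neural markers ran the other way against WT, with none lower and 2 of 6 higher in KD (median 0.82). The share of all genes higher in late KD EBs than in WT is not given here. SCR and WT differed in these tissues too. The endoderm and liver list had a median log2 change of -2.5 in SCR from WT and the neural list one of 2.63, on the same arrays on which the 9 repair genes differed by a median of -0.12. On day 4, 6 of 9 mesoderm and heart markers and 5 of 8 endoderm and liver markers were higher in KD than in SCR (5.67% of all genes). Against WT on that day none of these was higher in KD, with medians of -0.08 and -0.05, while 5 of 9 and 5 of 8 were lower in SCR than in WT. The share of all genes lower in SCR than in WT on day 4 is not given here. The mean level of the mesoderm and heart list was then 4.6 to 4.8 in SCR and 7.1 to 7.3 in WT. That of the endoderm and liver list was 3.9 to 4.1 in SCR and 6.4 to 6.6 in WT. The part of tissue composition in the change of the 9 genes was not tested.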

How the data were processed

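The deposited table holds log2 expression values that the authors had made from Affymetrix Mouse Genome 430 2.0 arrays by robust multi-array averaging (RMA). The submitters' processing notes name Affymetrix Expression Console, Partek 6.6 and RMA, whereas the study's methods name R packages, and the RNA kits named also differ, so the software actually used is not settled. Each of the 54 columns was matched to its sample by name, and 0 value columns were left unused. The table listed 30939 probe sets, of which 25596 have 1 gene symbol in the platform annotation, for 14104 genes. Each gene was read from its brightest such probe set.

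A linear model with 1 mean for each of the 18 groups was fitted to all probe sets and arrays with limma 3.58.1 (lmFit and eBayes, with statmod 1.5.0) in R 4.3.3, and p values were adjusted by Benjamini-Hochberg over all probe sets. A gene was called at adjusted p under 0.05 and a change of at least 2-fold. Late values are the mean over days 12, 15 and 22 with equal weight per day. The procedure was tested on simulated data first. The 9 genes, the lists of other repair genes, of checkpoint, proliferation, pluripotent, germ cell, mesoderm, endoderm and neural genes, and the motifs were chosen with earlier results of these data known. From each list up to 4 genes with the widest late change past the threshold were named, and for likeness the closest genes by Pearson correlation over the 18 group means. Same-numbered arrays of different lines deviated together in 32 of 54 pairs only (r over 0.1), so the numbers were not taken as pairs. Arrays give relative levels, so levels of different genes were not compared, and their number (3 per group) limits the precision.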

Additional observations from a re-analysis of the deposited data

Results flagged for a closer look

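For 8 of the 9 genes the late change from day 0 differed between the lines by at least 2-fold in a test of the interaction itself (limma, adjusted over all probe sets). Against SCR the extra log2 change in KD was -1.27 for Brca1, -1.01 for Bard1, -1.40 for Rad18, -1.14 for Palb2, -1.32 for Fancd2, -1.36 for Blm, -1.21 for Exo1 and -1.20 for Rad54l. Against WT it was -1.38 for Brca1, -1.28 for Bard1, -1.5 for Rad18, -1.15 for Palb2, -1.52 for Fancd2, -1.40 for Blm, -1.29 for Exo1 and -1.27 for Rad54l. The same KD arrays enter both sets of values. Each value is that of the probe set used, and the other probe sets of Rad18 gave -1.11, -1.13 and -0.52 against SCR. With 3 arrays in a group, single arrays that stand apart were not looked for by a test.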

How the results depend on the processing

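Of 5740 recomputed values of single genes, 5532 kept their side of the threshold, 93 no longer passed, 115 newly passed and 0 changed sign past it. Changes of sign short of the threshold are not among these counts. The changes lay near the 2-fold minimum, so counts of genes moved with the rule. By adjusted p alone, the genes lower in KD than in SCR were 1 on day 2 (14.5% of all genes), 1 on day 4 (23.5%) and 9 on day 12 (28.1%). Lower in KD than in WT were 9 on day 12 (27.1%). By the same rule 5, 6 and 5 were lower in SCR than in WT on day 15, on day 22 and over the late days (32.1% over the late days). From day 0 to day 4 it gave 6 in KD, 2 in SCR and 5 in WT. From day 0 to the late days it gave 7 in SCR (32.4%) and 7 in WT (28.7%). Shares of all genes are not given here for the remaining contrasts or for the settings below, so those counts cannot be set against all genes. A test against a 2-fold change itself (treat) left 0 on day 12, 0 on day 15, 1 on day 22 and 1 over the late days against SCR, and 0 on day 12 and 5 over the late days against WT. It left 0 for the late days against day 0 in SCR and in WT, 0 for day 4 in WT, and 2 and 4 for the interactions with SCR and WT. With the mean of all probe sets of a gene, the counts against SCR were 1 on day 12, 2 on day 15, 3 on day 22, 2 over the late days and 5 for the interaction, and those against WT were 1 on day 12 and 4 over the late days. Arrays centred on their medians, or quantile normalized again, gave 4 against SCR on day 12. Centring shifted the median log2 change of all genes most for late KD against day 0, to -0.14, where it was 0.08 with the values as deposited. Without 1 replicate the counts ran from 2 to 4 against SCR and from 1 to 4 against WT on day 12, and from 6 to 8 against SCR over the late days. The replicate number as a block left 6 genes against SCR and 8 against WT over the late days, and it changed no count. Bard1 did not pass the filter for the brightest 60% of probe sets, which kept the other 8 genes. The cause of these shifts was not tested.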
